A study of Homo sapiens with 2 samples.

Results

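The 42 genes described here are androgen-induced genes of the prostate other than the kallikreins, taken by name from the gene symbols of the array's probe sets, out of 19775 genes that the array names. Androgen acts in prostate cells through the androgen receptor, a nuclear receptor that, once bound by hormone, binds DNA at androgen response elements and recruits coactivators, and many of the genes it induces serve secretion, lipid handling, glycosylation and ion transport, the work of the luminal cell. Enzalutamide blocks this receptor. The samples were C4-2B-MDVR, an enzalutamide-resistant human prostate cancer line that was derived from C4-2B by prolonged exposure to the drug, and C4-2B, the enzalutamide-sensitive parent line, with 1 Affymetrix array each. Both lines were grown in RPMI-1640 with serum and antibiotics, and the titles of both samples read no treatment. The titles do not say whether enzalutamide was kept in the C4-2B-MDVR culture until RNA was taken.

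The resistant sample's title, source and cell line labels name C4-2B-MDVR, but its description names a docetaxel-resistant line, TaxR. The cell line label was followed, and each difference below is log2 intensity on the array labelled C4-2B-MDVR minus log2 intensity on the array labelled C4-2B. Each line has 1 array, which leaves no replicate spread and no test, and "lower" and "higher" describe these 2 arrays. The arrays measure the RNA of whole cultures, where fewer cells of a type and less RNA per cell cannot be told apart. The floor was each array's median intensity, 43.5 for C4-2B-MDVR and 41.9 for C4-2B. It is not a detection call, and "detected" below means above this floor. A gene counted as above it if its brighter array reached its own floor. Each gene is given by the probe set with the highest mean level unless stated otherwise. Some probe set names mark sequence shared with other transcripts, and the text below repeats this for a few genes only. NDRG1, NCOA4, DBI, ADAMTS1 and TMEM50A had no probe set without this mark. The probe sets that stood for CENPN, ZBTB10, TPD52, HOMER2, PLPP1, RAB4A and NGLY1 also carried it.

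Prostate luminal markers were present on both arrays. Of 8 listed markers 6 were measured and all 6 were above the floor, with a summed intensity of 9666 in C4-2B-MDVR, against 18227 in C4-2B, of which KLK3 gave 172 in C4-2B-MDVR and 8379 in C4-2B. KRT18, a keratin of luminal epithelium, was at 4038 in C4-2B-MDVR and 4337 in C4-2B, and HOXB13, a homeobox factor of prostate, was at 1950.4 in C4-2B-MDVR and 1879 in C4-2B. Of other cell types, fibroblast markers summed to 367 in C4-2B-MDVR and 401 in C4-2B with 3 of 5 above the floor, and blood and endothelial markers to 194 in C4-2B-MDVR and 177 in C4-2B with 2 of 5 measured ones above it. These 2 were CD3E, at 73.6 in C4-2B-MDVR and 69.9 in C4-2B, and PECAM1, at 67.9 in C4-2B-MDVR and 58.9 in C4-2B. The fibroblast marker COL1A1 was at 217 in C4-2B-MDVR and 255 in C4-2B. The leukocyte gene PTPRC and the endothelial CDH5 were under the floor on both arrays, as were CHGA, CHGB and INSM1 of the neuroendocrine list. That list summed to 306 in C4-2B-MDVR and 117 in C4-2B, mostly through ENO2, and its part in the results below was not tested. Basal markers summed to 57.9 in C4-2B-MDVR and 64.4 in C4-2B, with 1 of 2 measured above the floor.

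Of the 42 genes, 39 had a probe set of their own and 37 were above the floor. Among these 37, 16 (43.2%) were 2-fold or more lower in C4-2B-MDVR and 0 were 2-fold or more higher, beside 3.5% lower and 3.17% higher among all 13437 named genes above the floor. The other 21 lay within 2-fold. The median difference was −0.61, with quartiles of −1.55 and −0.09, beside a median of 0.04 and quartiles of −0.22 and 0.26 over all genes. In all, 29 of the 37 were below 0 and 8 above it, where 44.8% of all genes were below 0. The genes were chosen with earlier results of these arrays known, so these shares describe them and are no independent test.

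**Figure D1:**
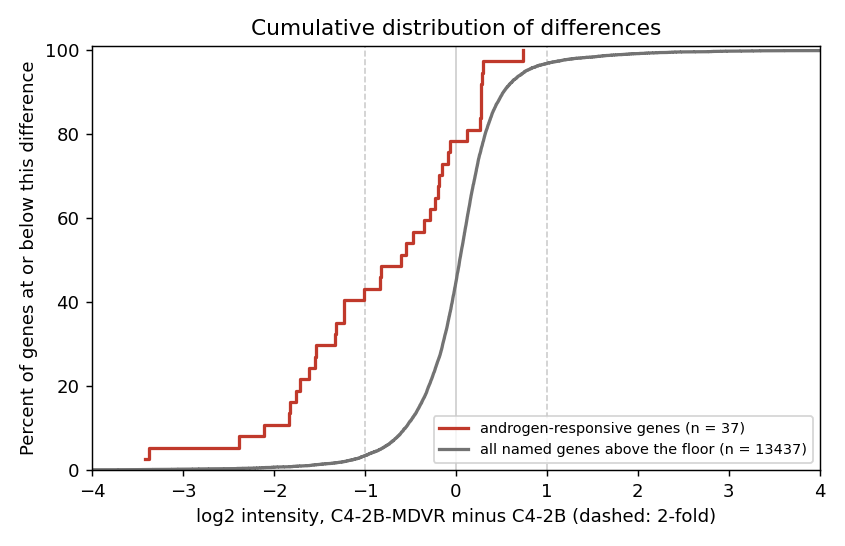
Cumulative percent of genes (vertical axis) at or below each log2 difference, C4-2B-MDVR minus C4-2B (horizontal axis), for the 37 androgen-responsive genes and for all 13437 named genes above the floor. At the left dashed line, 2-fold lower, the androgen-responsive genes have reached 43.2% and all genes 3.5%, and no androgen-responsive gene lies beyond the right dashed line.

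The differences were uneven. The gap between the members just past 2-fold and just within it was small, with AZGP1 at −1.02 and HOMER2 at −0.83. Of the 16 lower genes 4 were 4-fold or more lower, a share not counted over all genes. At 3-fold 9 of the 37 were lower, beside 1.2% of all genes. On the log2 scale 14 of the 37 genes were within 0.3 of 0. The quartiles of all genes, −0.22 and 0.26, also lie within 0.3 of 0. None of the 37 was under the floor on its dimmer array, so none of the differences of the probe sets that stood for them is a bound. Markers of other cell types also passed the floor, with CD3E at 73.6, PECAM1 at 67.9 and COL1A1 at 217 in C4-2B-MDVR. The C4-2B-MDVR values of IQGAP2 (65.6), ALDH1A3 (67.6) and TNFAIP8 (77.7) were near CD3E and PECAM1. Those of SEC24D (80.2), LIFR (81.8), SLC26A2 (89.3), SLC45A3 (102) and ZBTB10 (186) were also below COL1A1. SGK1 and PTPN21, both within 2-fold, were below CD3E on both arrays. Whether values this low show expression was not tested.

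**Figure D2:**
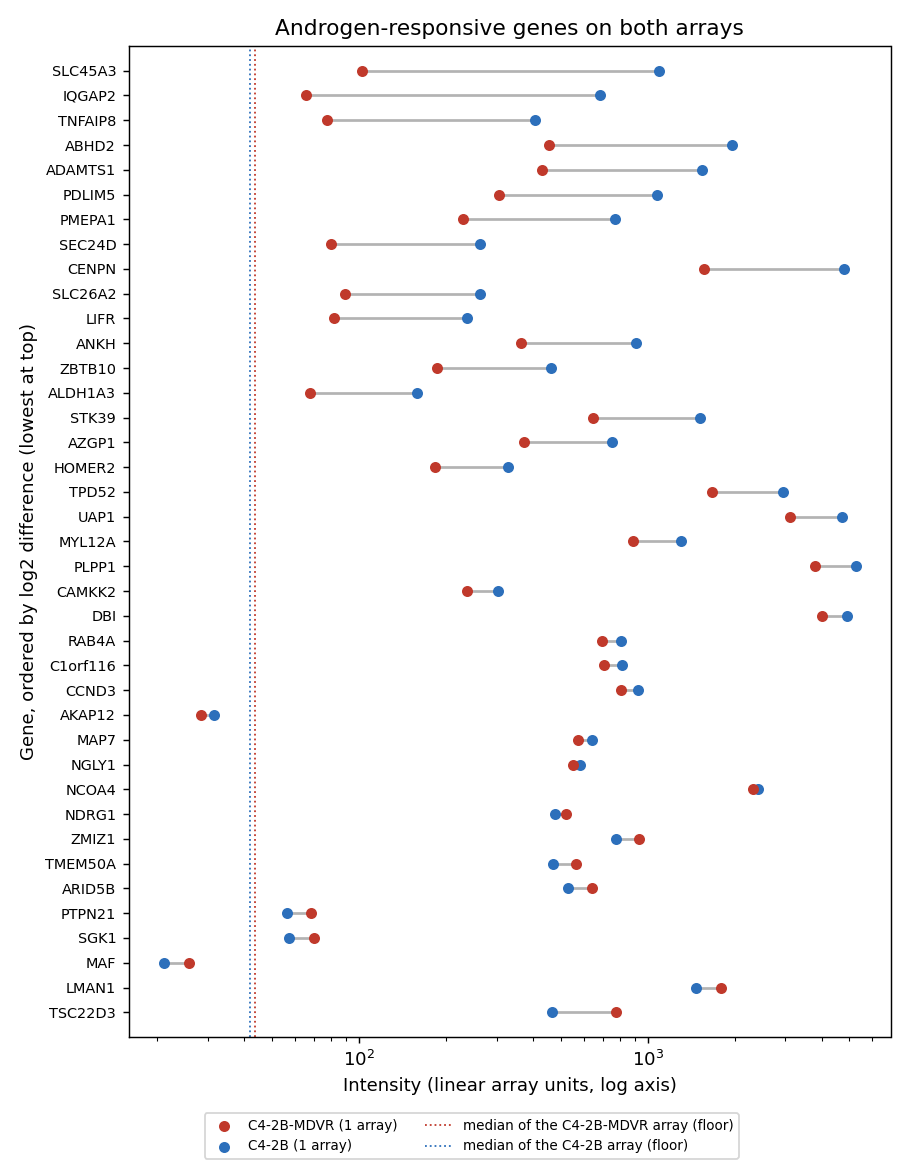
Intensity on a log axis (horizontal) of the 39 measured genes (vertical, lowest log2 difference at the top), with 1 point for the C4-2B-MDVR array and 1 for the C4-2B array, and dotted lines at each array's median, used as the floor. The 16 genes from SLC45A3 to AZGP1 lie 2-fold or more further left in C4-2B-MDVR, and AKAP12 and MAF lie left of the floor on both arrays.

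The genes were also read by role, in small groups, and differences between roles were not tested. Membrane proteins and transporters were the role with the most lower members, 5 of 6, beside 3.5% of all genes. Their median was −1.54. SLC45A3, or prostein, a prostate-restricted sugar transporter family protein whose promoter is a fusion partner of ETS genes in prostate cancer, had an intensity of 102 in C4-2B-MDVR, against 1091 in C4-2B, a log2 difference of −3.42. Its other probe set had 51.3 in C4-2B-MDVR, against 269.5 in C4-2B, a difference of −2.39. SLC45A3 was 2-fold or more lower on both of its probe sets, and lowest of the 37 by the probe set that stood for it. With the mean of detected probe sets it was at −2.91 and IQGAP2, at −3.38, was lower.

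PMEPA1, a transmembrane protein that binds NEDD4 ubiquitin ligases and curbs TGF-beta signalling, had 229 in C4-2B-MDVR, against 772 in C4-2B (−1.76). Its other probe sets gave a wider range, with 81.2 in C4-2B-MDVR against 971 in C4-2B (−3.58) for one and 66.2 in C4-2B-MDVR against 238 in C4-2B (−1.85) for the other. All 3 were 2-fold or more lower, so the direction was shared while the size depended on the probe set. SLC26A2, a sulfate transporter, had 89.3 in C4-2B-MDVR and 262 in C4-2B (−1.55), with its other probe sets at −1.14 and −0.45. The receptor for leukemia inhibitory factor, LIFR, had 81.8 in C4-2B-MDVR and 237 in C4-2B (−1.54), and a second detected probe set was at −0.61. ANKH, a membrane protein that governs pyrophosphate outside cells, had 363 in C4-2B-MDVR and 911 in C4-2B (−1.33). Its second detected probe set was at −1.12, and the third, under the floor in C4-2B-MDVR, was at least 3.29-fold lower. TMEM50A, a small multi-pass membrane protein, was the member of this group within 2-fold, with 566 in C4-2B-MDVR and 469 in C4-2B (0.27).

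Among the enzymes, 2 of 5 measured were 2-fold or more lower, beside 3.5% of all genes, and the median was −0.61. ABHD2, a monoacylglycerol lipase, had 454 in C4-2B-MDVR, against 1959 in C4-2B (−2.11). Its low value was shared across the gene: all 6 of its probe sets were above the floor and all were 2-fold or more lower, from −2.91 to −1.5. ALDH1A3, which makes retinoic acid from retinal, had 67.6 in C4-2B-MDVR and 159 in C4-2B (−1.23) on its 1 probe set above the floor. The other enzymes were within 2-fold. UAP1, which makes UDP-N-acetylglucosamine for glycosylation, had 3101 in C4-2B-MDVR and 4723 in C4-2B (−0.61). The lipid phosphate phosphatase PLPP1 had 3801 in C4-2B-MDVR and 5262 in C4-2B (−0.47), and DBI, an acyl-CoA-binding protein, had 4017 in C4-2B-MDVR and 4904 in C4-2B (−0.29). Their probe sets stayed close together, at −0.47 and −0.40 for PLPP1 and from −0.29 to −0.15 for DBI. SORD and PGM3 were not analysed here.

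Signalling genes were mostly within 2-fold, with 2 of 7 lower, still above the 3.5% of all genes, and a median of −0.19. TNFAIP8, a regulator of cell survival induced by tumour necrosis factor, had 77.7 in C4-2B-MDVR, against 406 in C4-2B (−2.39), and a second detected probe set was at −1.99. Both of these probe sets are named as sharing sequence with other transcripts, and the third, under the floor on both arrays, was at −0.92. STK39, a kinase that phosphorylates cation-chloride cotransporters, had 648 in C4-2B-MDVR and 1519 in C4-2B (−1.23) on its single probe set.

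CAMKK2, the kinase that activates AMP-activated protein kinase and a much studied androgen receptor target, differed little. It had 237 in C4-2B-MDVR and 303 in C4-2B (−0.35), and its 3 detected probe sets lay between −0.72 and −0.19. CCND3, which encodes cyclin D3, had 810.2 in C4-2B-MDVR and 921 in C4-2B (−0.19). NDRG1, a stress-responsive gene that hypoxia also induces, had 519 in C4-2B-MDVR and 477 in C4-2B (0.12), and SGK1, a serum- and glucocorticoid-induced kinase, had 69.6 in C4-2B-MDVR and 56.9 in C4-2B (0.29). PTPN21, a tyrosine phosphatase with a FERM domain, had no agreed direction. The probe set that stood for it had 68.1 in C4-2B-MDVR and 56.3 in C4-2B (0.27), whereas another had 11.3 in C4-2B-MDVR, below its floor, and 56.4 in C4-2B, which is at least 1.30-fold lower.

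Transcription and hormone response genes were the role with the fewest lower members, 1 of 6 above the floor, beside 3.5% of all genes. Their median was 0.10. The lower one was ZBTB10, a zinc finger transcriptional repressor, with 186 in C4-2B-MDVR and 464 in C4-2B (−1.32). Of its 5 probe sets above the floor 4 were below 0 and 1 was at 0.12. TSC22D3, the glucocorticoid-induced leucine zipper, was the highest of all 37 genes, with 777 in C4-2B-MDVR and 467 in C4-2B (0.74), and a second detected probe set was at 0.64. Both are named as sharing sequence, and the third probe set, under the floor on both arrays, was at −0.03. ARID5B, a DNA-binding chromatin cofactor, had 641 in C4-2B-MDVR and 531 in C4-2B (0.27), and ZMIZ1, a PIAS-like coactivator of the androgen receptor, had 934 in C4-2B-MDVR and 775 in C4-2B (0.27). Both lay above 0 by less than 2-fold, and a second detected ZMIZ1 probe set was at −0.19. NCOA4, a receptor coactivator that also carries ferritin to autophagy, had 2308 in C4-2B-MDVR and 2409 in C4-2B (−0.06). C1orf116, also named specifically androgen-regulated gene, had 707 in C4-2B-MDVR and 814 in C4-2B (−0.20), though another of its probe sets was at −0.97. MAF, a basic leucine zipper factor, was under the floor on both arrays, at 25.7 in C4-2B-MDVR and 21.0 in C4-2B.

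Genes of the secretory pathway were divided, with 3 of 7 lower, beside 3.5% of all genes, and a median of −0.82. ADAMTS1, a secreted metalloproteinase, had 431 in C4-2B-MDVR, against 1541.5 in C4-2B (−1.84), and its other probe set was at −2.23. SEC24D, a cargo-binding subunit of the COPII coat that carries proteins out of the endoplasmic reticulum, had 80.2 in C4-2B-MDVR and 262 in C4-2B (−1.71). This was its 1 probe set above the floor, and the others, under it on both arrays, were at −0.52 and 0.19. AZGP1, the secreted zinc-alpha-2-glycoprotein, had 372 in C4-2B-MDVR and 751 in C4-2B (−1.02), and under quantile normalization (−0.94) or loess (−0.99) it lay just within 2-fold. TPD52, a vesicle traffic protein, stood just within 2-fold by its brightest probe set, with 1672 in C4-2B-MDVR and 2951 in C4-2B (−0.82). Of its other 4 probe sets one was at −0.92, one at −1.09, one at −1.34 and one, under the floor in C4-2B-MDVR, at least 2.10-fold lower, so its side of the threshold depended on the probe set. LMAN1, a cargo receptor between the endoplasmic reticulum and the Golgi, lay the other way, with 1799 in C4-2B-MDVR and 1466 in C4-2B (0.29) and all 3 probe sets above 0. RAB4A, a GTPase of recycling endosomes, had 692 in C4-2B-MDVR and 810.1 in C4-2B (−0.23), with all 3 probe sets between −0.27 and −0.23. NGLY1, which strips glycans from misfolded proteins, had 549 in C4-2B-MDVR and 584 in C4-2B (−0.09).

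Cytoskeletal, scaffold and kinetochore genes held 3 lower members of 6 above the floor, beside 3.5% of all genes, with a median of −1.22. IQGAP2, a scaffold that binds Rac1 and Cdc42, had 65.6 in C4-2B-MDVR, against 682 in C4-2B, a difference of −3.38 on its 1 probe set above the floor. PDLIM5, a PDZ and LIM domain protein of the actin cytoskeleton, had 304 in C4-2B-MDVR and 1079 in C4-2B (−1.83). CENPN, a kinetochore protein that binds the centromeric nucleosome, had 1565 in C4-2B-MDVR and 4784 in C4-2B (−1.61). All 5 PDLIM5 probe sets above the floor were below 0, from −1.83 to −0.93, and the other CENPN ones were lower still, at −2.74 and −2.38. HOMER2, a postsynaptic-type scaffold, had 183 in C4-2B-MDVR and 327 in C4-2B (−0.83), with its other probe set at −1.27. The myosin regulatory light chain gene MYL12A had 888 in C4-2B-MDVR and 1299 in C4-2B (−0.55), and another probe set for it was at least 2.14-fold lower. MAP7, a microtubule-binding protein, had 574 in C4-2B-MDVR and 639.8 in C4-2B (−0.16), close to equal. AKAP12, a kinase anchoring protein, was under the floor on both arrays, at 28.2 in C4-2B-MDVR and 31.5 in C4-2B. HERC3, a ubiquitin ligase of the HECT family, was represented only by probe sets that name a second gene and was left out of the counts.

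Agreement between probe sets of a gene gave a second reading of the same 2 RNA samples, not a replicate. The 39 genes had 130 probe sets, of which 87 were above the floor. By measured values 41 of the 87 (47.1%) were lower by 2-fold or more and 0 higher, beside 4.06% lower and 2.75% higher among all 24087 named probe sets above the floor. ANKH, MYL12A, PTPN21, TPD52 and ZBTB10 each had 1 probe set among the 87 whose C4-2B-MDVR value lay below its floor. Setting these values to the floor itself, a choice made after the data were seen, 40 (46.0%) were lower, beside 3.44% of all, and the PTPN21 probe set was the one lost. The median of the 87 measured differences was −0.97, and 72 of the 87 were below 0, where 46.7% of all named probe sets above the floor were. Among the 27 genes with several probe sets above the floor, 7 had all of them 2-fold or more lower, 13 had none and 7 were mixed by this bound. In 23 of the 27 all such probe sets had one sign, and ZBTB10, MAP7, PTPN21 and ZMIZ1 had both.

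**Figure D3:**
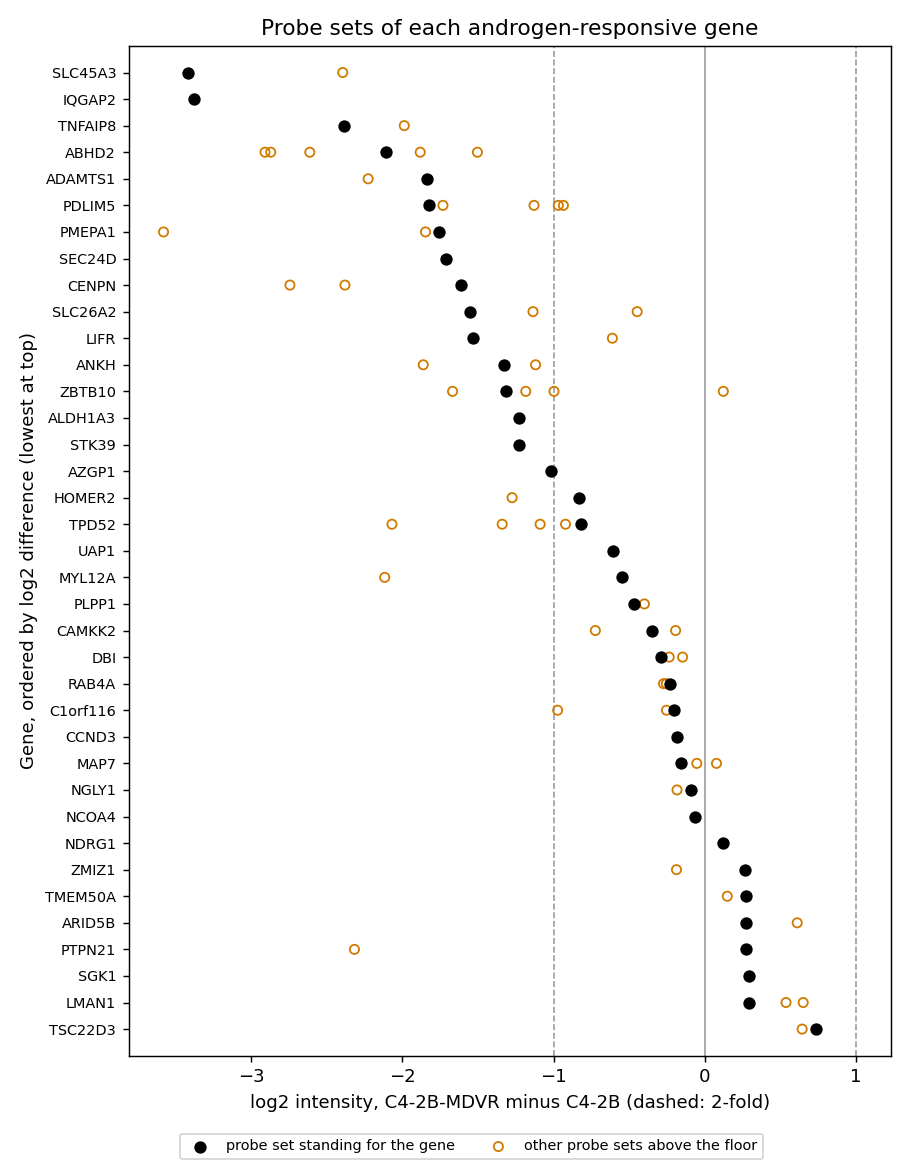
The log2 difference, C4-2B-MDVR minus C4-2B (horizontal axis), of each probe set above the floor for the 37 genes (vertical axis, lowest at the top), with filled points for the probe set that stood for the gene and open points for the others. All 6 ABHD2 points lie left of the 2-fold line, TPD52 and PDLIM5 straddle it, and PTPN21 has points at 0.27 and −2.32, the second with a C4-2B-MDVR value under the floor.

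The DNA before the transcription starts is shown for SLC45A3 and for the 4 genes with an androgen receptor half-site there. RefSeq start windows (GRCh38.p14) matched 34 of the 42 genes with 68 windows, and the 250 bases before each start were searched for the half-site AGAACA on both strands, where the other strand reads TGTTCT, and for the whole palindrome (AGAACA, any 3 bases, TGTTCT), which contains the half-site at each end. The sequences below run 5′ to 3′ towards the start, with the half-site in capitals. SLC45A3 is from chr1:205680510-205680759 (minus strand), IQGAP2 from chr5:76547159-76547408 (plus strand, an inner start), LIFR from chr5:38557468-38557717 (minus strand, an inner start), PMEPA1 from chr20:57710578-57710827 (minus strand, an inner start) and STK39 from chr2:168247596-168247845 (minus strand).
SLC45A3: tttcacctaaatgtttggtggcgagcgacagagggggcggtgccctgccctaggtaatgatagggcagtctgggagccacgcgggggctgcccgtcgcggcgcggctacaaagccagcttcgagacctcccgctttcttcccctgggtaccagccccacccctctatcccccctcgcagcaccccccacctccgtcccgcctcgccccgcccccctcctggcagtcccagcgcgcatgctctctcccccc
IQGAP2: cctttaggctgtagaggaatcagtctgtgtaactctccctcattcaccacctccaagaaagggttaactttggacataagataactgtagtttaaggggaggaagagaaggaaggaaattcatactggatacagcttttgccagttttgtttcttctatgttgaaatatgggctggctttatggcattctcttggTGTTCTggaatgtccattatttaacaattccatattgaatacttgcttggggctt
LIFR: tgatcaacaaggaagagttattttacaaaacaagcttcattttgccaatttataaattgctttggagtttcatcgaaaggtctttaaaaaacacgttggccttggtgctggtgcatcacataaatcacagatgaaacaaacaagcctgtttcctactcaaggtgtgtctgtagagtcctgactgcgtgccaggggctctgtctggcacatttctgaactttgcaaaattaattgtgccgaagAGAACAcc
PMEPA1: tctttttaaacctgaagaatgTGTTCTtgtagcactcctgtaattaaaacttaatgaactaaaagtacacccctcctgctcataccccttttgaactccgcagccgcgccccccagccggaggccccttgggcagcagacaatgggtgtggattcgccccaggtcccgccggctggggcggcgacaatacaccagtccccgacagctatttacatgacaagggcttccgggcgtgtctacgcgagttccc
STK39: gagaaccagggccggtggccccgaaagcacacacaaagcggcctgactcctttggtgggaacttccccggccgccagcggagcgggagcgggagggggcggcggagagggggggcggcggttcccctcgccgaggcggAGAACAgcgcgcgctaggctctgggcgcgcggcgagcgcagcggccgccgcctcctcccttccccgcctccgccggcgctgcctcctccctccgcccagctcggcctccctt

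SLC45A3 had no half-site in this window. The half-site began 55 bases before the start in IQGAP2, 8 in LIFR, 229 in PMEPA1 and 112 in STK39. Of the 68 windows of the 42 genes, 4 (5.88%) had a half-site, beside 12.4% of all 35116 windows of 27305 genes. The 13 lower genes with a window had these 4, out of 23 windows (17.4%), and the 17 genes within 2-fold had 0 of 37. This split follows the differences themselves and rests on 4 windows, and a link between half-sites and the differences was not tested. The whole palindrome was in 0 of the 68 windows and in 1 of all windows. Windows of the 42 genes had a median of 66.2% G and C, beside 58% over all windows. A match describes these letters only, and binding was not measured.

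Listed paralogs were set beside the lower genes. Of the 16 lower genes 12 had a listed paralog, and 14 such paralogs of 11 genes were above the floor. Of the 14, 0 were 2-fold or more lower and 0 higher, near the 3.5% and 3.17% of all genes, and their median was 0.21. IQGAP1 was at −0.16 and IQGAP3 at 0.25 beside IQGAP2 at −3.38, SLC45A4 was at 0.27 beside SLC45A3, and OXSR1, the kinase closest to STK39, was at 0.15. ABHD3 was at −0.49 and OSMR, the relative of LIFR, at −0.61, the lowest of the 14. SEC24C was at −0.11 beside SEC24D. SEC24A (−1.12) and SEC24B (−0.76), also relatives of SEC24D, were in the COPII list and not in the paralog list, so the count of 0 depends on which relatives were listed. Outside the lower genes, HOMER1 was at −1.0 beside HOMER2, and PLPP2, another lipid phosphate phosphatase, was higher in C4-2B-MDVR, with 219 against 67.9 in C4-2B (1.69), beside PLPP1 at −0.47.

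Position along the chromosome was compared through gene order. For each of the 37 genes the 5 nearest measured genes on each side above the floor were taken. The lower genes had 160 such neighbours, of which 16 (10.0%) were 2-fold or more lower, with a median of −0.04, and the other genes had 205, of which 11 (5.37%) were, with a median of 0.003, beside 3.5% lower among all genes. These neighbours include members of the 42. Without them, an alternative added after the data were seen, 16 of 159 (10.1%) and 10 of 204 (4.90%) were lower. Medians of neighbours lay between −0.57 and 0.39 for the 16 lower genes, and 10 of these were within 0.3 of 0. SLC45A3 stood among neighbours with a median of 0.23, ABHD2 of 0.26 and PMEPA1 of 0.20, and those of ABHD2 ranged from −0.16 to 0.56. The lowest median, −0.57, was around ZBTB10, where 0 of 10 neighbours were 2-fold or more lower. Around CENPN 4 of 10 neighbours were 2-fold or more lower, with a median of −0.50, and around SEC24D the median was −0.47. PDLIM5 adjoined BMPR1B, a bone morphogenetic protein receptor gene at −4.57. Chromosome 5 carried 6 of the 37 genes, of which 5 (IQGAP2, TNFAIP8, SLC26A2, LIFR and ANKH) were lower, where 7.49% of its 574 genes above the floor were lower. Chromosome 4 carried 2 (PDLIM5 and SEC24D), both lower, where 11.9% of its 447 genes were.

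**Figure D4:**
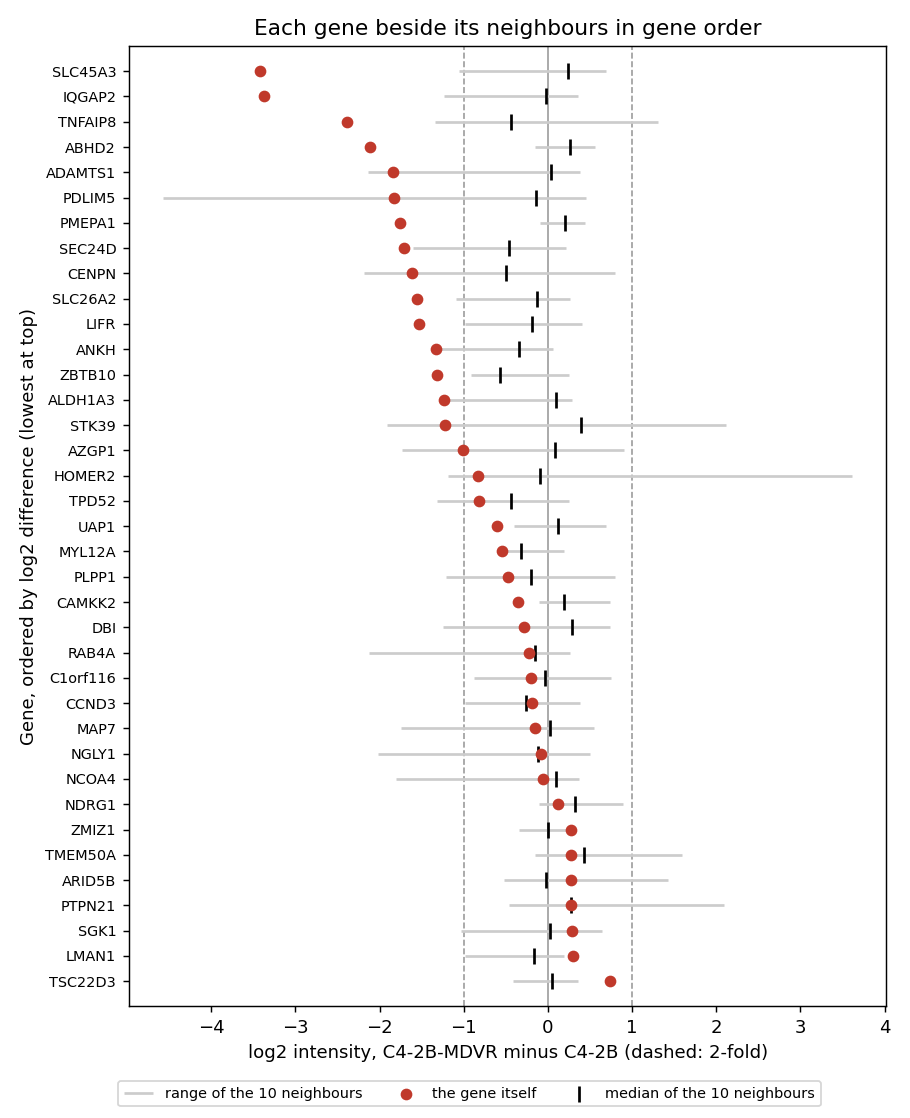
The log2 difference, C4-2B-MDVR minus C4-2B (horizontal axis), of each of the 37 genes (red) beside the median (black mark) and range (grey line) of its 10 nearest measured genes in gene order (vertical axis, lowest gene at the top). Of the lower genes, SLC45A3, IQGAP2, TNFAIP8, ABHD2, PMEPA1, SEC24D, SLC26A2, LIFR, ZBTB10 and ALDH1A3 lie below the range of their neighbours. The neighbours of PDLIM5 reach −4.57.

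Genes of the surrounding pathways were read on the same scale, beside 3.5% lower and 3.17% higher among all genes above the floor. Receptor partners differed little: of 6 measured receptor cofactor genes 1 was 2-fold or more lower, and the median was −0.01. NCOA1, a p160 coactivator, had 262 in C4-2B-MDVR and 547 in C4-2B (−1.06), while the pioneer factor FOXA1 was at −0.08, GATA2 at 0.23 and the coactivator NCOA2 at 0.36. The other androgen-induced genes, a list that includes kallikreins and was also chosen with results of these arrays known, had 11 of 18 genes above the floor 2-fold or more lower and a median of −1.62. By measured value the 6 farthest from 0 were KLK3, the gene of prostate-specific antigen (−5.61), ELOVL7, a fatty acid elongase (−4.92), ELL2, an elongation factor of RNA polymerase (−3.70), INPP4B, a phosphoinositide phosphatase (−3.47, though its C4-2B-MDVR value was below the floor and shows only that it was at least 2.24-fold lower), ABCC4, an efflux transporter (−2.74), and GNMT, a glycine methyltransferase (−2.28). KLK4 (0.43) and TMPRSS2 (−0.27) were within 2-fold.

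Glucocorticoids induce several of the same genes through a related receptor. Of 12 such genes above the floor 2 were lower and 0 higher, beside 3.5% and 3.17% of all genes. Their median was −0.22. ZBTB16, a zinc finger factor, had 46.8 in C4-2B-MDVR, against 421 in C4-2B (−3.17), and FKBP5, a co-chaperone of steroid receptors, had 729.7 in C4-2B-MDVR, against 2689 in C4-2B (−1.88). TSC22D3 and SGK1, which are both in this list and among the 42 genes, were above 0, as were TIPARP (0.57) and GADD45B (0.44). Apart from ZBTB16 and FKBP5, the lowest was MT1X, a metallothionein (−0.56). Of 10 hypoxia-induced genes above the floor, NDRG1 included, 0 were beyond 2-fold in either direction, near the 3.5% lower and 3.17% higher of all genes, and the median was 0.05.

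Other lists held 1 or 2 of the 42 genes each, and their counts stand beside 3.5% lower and 3.17% higher among all genes. In the hexosamine pathway, which feeds glycosylation, GNPNAT1, the acetyltransferase upstream of UAP1, had 529 in C4-2B-MDVR and 1067 in C4-2B (−1.01) and was the 1 of 6 genes beyond 2-fold, while NAGK (0.68) and OGA (0.66) were above 0. Of 16 genes of the COPII coat and its cargo receptors, SEC24D and SEC24A were the 2 lower ones and the median was −0.19. In the centromere network 2 of 12 genes were lower, CENPN and CENPQ (−1.18), and the median was −0.58. In the LIF receptor system LIFR was the lower gene of 9, the shared signalling subunit IL6ST was at −0.18, and LIF, the ligand, was higher, with 130.3 in C4-2B-MDVR and 41.9 in C4-2B, at the floor (1.64).

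**Figure D5:**
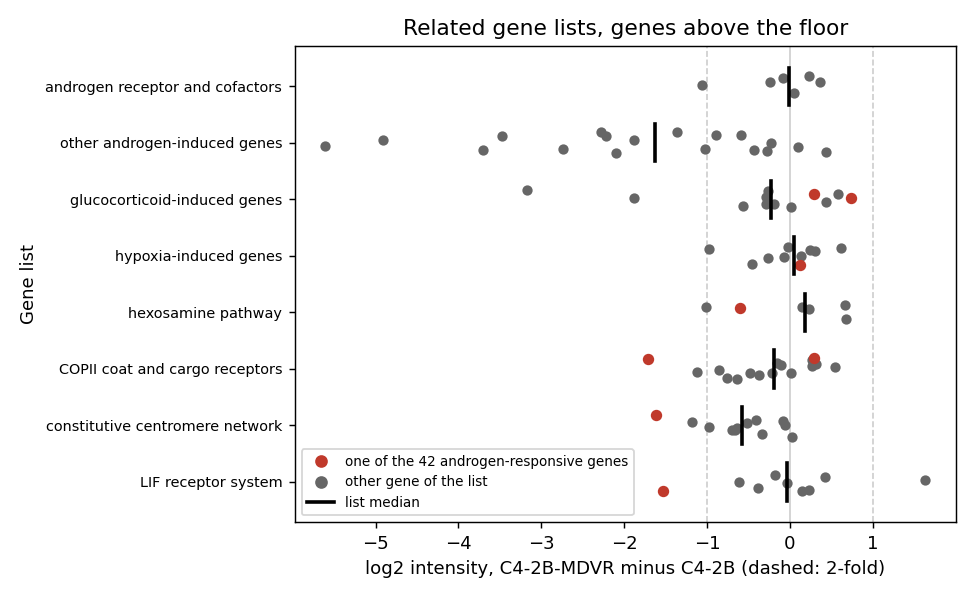
The log2 difference, C4-2B-MDVR minus C4-2B (horizontal axis), of the genes above the floor in 8 related lists (vertical axis), with a bar at each list's median and red points for genes that belong to the 42. The other androgen-induced genes reach −5.61 with a median of −1.62, whereas the medians of the other lists lie between −0.58 and 0.18.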

How the data were processed

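Per the labels' protocols, Trizol-extracted total RNA was amplified, biotinylated and run on Affymetrix arrays. The authors deposited linear intensity values, 1 per probe set. Their background correction and normalization were not given in the sources used here. The values were taken as they stand, on the log2 scale. The table holds 54675 probe sets and 0 columns of other samples. The platform annotation of 2016 names 41097 probe sets with 1 gene symbol and 1801 with several, and the remaining 11777 are unnamed here. A probe set with several symbols was given to no gene. Symbols were checked by Entrez identifier against RefSeq genes of GRCh38.p14, which also gave gene order and start windows.

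A gene was counted as lower or higher at a 2-fold difference, and values under the floor gave bounds against the floor. The members and lists were chosen with earlier results of these data known. Every member is named, and of each list up to 6 genes beyond 2-fold. Some genes named beside these, within 2-fold, were chosen after their values were seen, as were the comparison with neighbouring genes and the counts of neighbours without members and of probe sets by their bounds. Results were recomputed with arrays centred on their medians, quantile-normalized or loess-corrected (span 0.3), and with other floors, thresholds and probe set rules. The steps were tested on simulated data with planted shifts. The error allowed there for a single gene was wider than the 2-fold threshold, so single calls near that threshold were not checked. Python 3.11.15, numpy 2.4.6, pandas 2.3.3, statsmodels 0.14.6 and matplotlib 3.10.9 were used.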

Additional observations from a re-analysis of the deposited data

How the results depend on the processing

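The count of 16 lower genes stayed between 12 and 20 under other scalings, floors and probe set rules, of 30 to 39 genes counted. Under these settings 2.35% to 4.62% of all genes were lower. Of the members 0 were 2-fold or more higher under any of these settings, beside 2.28% to 3.31% of all genes. The 20 came from the mean of detected probe sets, which added HOMER2 (−1.05), TPD52 (−1.25), MYL12A (−1.33) and PTPN21 (−1.02). The means of TPD52, MYL12A and PTPN21 each include a probe set whose C4-2B-MDVR value lay below its floor. At a 1.5-fold threshold 19 genes were lower and 1, TSC22D3, was higher, beside 9.32% and 8.26% of all genes. At 3-fold 9 were lower and 0 higher, beside 1.2% and 1.45%. The median difference of −0.61 was −1.02 when all detected probe sets of a gene were averaged, −1.12 with probe sets whose names do not mark shared sequence (30 genes left) and −0.82 with the floor at the 75th percentile (35 genes left). Under the other scalings, floors and probe set rules it lay between −0.68 and −0.55. Of the 16 lower genes 8 were at −1 or less under all 7 settings run for single genes, apart from ADAMTS1, which has 6 since it has no probe set without shared sequence. With the mean of all probe sets, those under the floor included, PDLIM5 (−0.68), SEC24D (−0.68), ZBTB10 (−0.75), ANKH (−0.78), LIFR (−0.82) and ALDH1A3 (−0.56) were within 2-fold, and TNFAIP8 was at −0.92 on its probe set without shared sequence, which lies under the floor. HOMER2 (−1.05) and TPD52 (−1.25) were counted as lower with the mean of all probe sets, so the counted genes were not always the same 16. AZGP1 was at −0.94 under quantile normalization and −0.99 under loess. The number of arrays, 1 per line, limits the precision of each value. No paired analysis was possible because each line has 1 array.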

Other observations

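Probe sets that name a second gene beside one of the 42 were left out of the counts and gave the following values. One shared by HERC3 and PIGY-DT had 31.9 in C4-2B-MDVR, below its floor, and 66.6 in C4-2B (log2 difference −1.06), and the other was under the floor on both arrays. The probe set shared by AZGP1 and its pseudogene AZGP1P1 had 191 in C4-2B-MDVR and 376 in C4-2B (−0.98), beside −1.02 for the AZGP1 probe set. The one shared by MYL12A and MYL12B had 2000.5 in C4-2B-MDVR and 2794 in C4-2B (−0.48), beside −0.55 for the MYL12A probe set that stood for the gene.

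On a second MYL12A probe set, named as sharing sequence, C4-2B-MDVR had 21.4, below its floor, and C4-2B had 92.9, at least 2.14-fold lower in C4-2B-MDVR, beside −0.55 on the brighter one. Which transcript each probe set reads was not analysed here.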
